A study of Homo sapiens with 6 samples.

Results

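The genes described here encode 3 guidance systems, the semaphorins with their plexin receptors, the ephrins with their Eph receptors, and the Slit proteins with their Robo receptors. They were taken from the deposited expression table by gene symbol, as every row named as a class 3 to 7 semaphorin (SEMA), a plexin (PLXN), an EphA or EphB receptor (EPHA, EPHB), an ephrin (EFNA, EFNB), a Slit (SLIT) or a Robo (ROBO). The rule found 58 genes of the 60612 in the table, namely 20 semaphorins, 9 plexins, 9 EphA and 5 EphB receptors, 5 ephrin-A and 3 ephrin-B ligands, 3 Slits and 4 Robos. A mean raw count of at least 10 over the libraries was reached by 51 of them, and the same 51 passed the filter of the test.

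Guidance cues were first known for steering growing axons, and the same ligands and receptors govern cell repulsion, adhesion and migration in other tissues and in glioma. Ephrins stay on the cell surface, ephrin-A ligands by a lipid anchor and ephrin-B ligands by a transmembrane segment, so signalling needs cell contact and runs into both the receptor-bearing and the ligand-bearing cell. Class 3 semaphorins and Slits are secreted, class 4 to 6 semaphorins span the membrane and SEMA7A is lipid-anchored. Plexins are the signal-transducing receptors of semaphorins, with neuropilins as co-receptors for most of class 3, and most Robos bind Slits together with heparan sulfate proteoglycans.

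The data are bulk RNA-seq libraries of U251, a long-cultured human glioma line whose genotype is labelled WT, in 3 libraries of cells given 6-shogaol for 24 h and 3 control libraries of cells without it. 6-shogaol is a pungent ketone of dried ginger, and the labels write its dose as 60 with the unit "μm", read here as micromolar. The question of the design is what the compound does to gene expression in these cells. Since nothing in the labels ties the replicates to separate cultures, the tests rest on variation among libraries that could be technical.

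The 6-shogaol libraries held 43516840 to 55225898 counts and the control libraries 52132767 to 60018999, and the guidance genes took 0.331% to 0.364% of the 6-shogaol and 0.347% to 0.369% of the control counts. On the second principal component of all tested genes (20.6% of the variance) 6-shogaol replicate 1 stood at 61.8, with the remaining 5 between -33.9 and 22.6. Glioma markers were present, with vimentin (VIM) at 1186 ± 364 FPKM with 6-shogaol and 1126 ± 14.3 FPKM in controls (SD, n = 3 each), while the astrocyte filament gene GFAP was low and fell with 6-shogaol (0.664 ± 0.0421 FPKM, against 2.03 ± 0.419 FPKM in controls, edgeR adjusted p = 0.00655). Of the other 4 glioma markers, NES fell (edgeR adjusted p = 0.0484), and SOX2 was lower and CD44 higher in all treated libraries without passing (edgeR adjusted p = 0.0646 and 0.12). The last, S100B, had a mean under 1 CPM in each group, and its groups overlapped. Summed markers of leukocytes came to 17.2 to 29.1 CPM with 6-shogaol and 13.6 to 15.6 CPM in controls (PTPRC at 0 to 0.266 CPM in all 6, CD3E at 0 counts). Nearly all of it was CD68, higher in all treated libraries without passing (23.0 ± 6.59 CPM with 6-shogaol and 13.8 ± 1.01 CPM in controls, edgeR adjusted p = 0.117). Those of neurons came to 219.98 to 384.8 CPM with 6-shogaol and 155 to 261 CPM in controls, those of epithelium to 158 to 209.9 CPM with 6-shogaol and 212 to 238 CPM in controls, and those of fibroblasts to 1214 to 1559 CPM with 6-shogaol and 1338 to 1724 CPM in controls. Most of the fibroblast sum was COL1A2, while COL1A1 fell (55.7 ± 5.68 CPM with 6-shogaol and 88.5 ± 12.6 CPM in controls, edgeR adjusted p = 0.0387). The part of these markers in the values of the guidance genes was not tested. Levels per length are given as FPKM (fragments scaled by transcript length and library size), and differences between groups rest on CPM (counts scaled by library size with TMM factors). In bulk RNA, fewer cells of a kind and less RNA per cell cannot be told apart.

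Levels spanned a wide range within every family, and each family except the plexins and the ephrin-A ligands was dominated by 1 or 2 genes. A mean of 10 FPKM or more over the 6 libraries was found for 10 genes, 1 to 10 FPKM for 21 and less than 1 FPKM for 27. EFNB2, the ephrin-B2 ligand best known from arteries, had the highest level of all (mean 75.9 FPKM) and made up 84.9% of the summed ephrin-B level. The secreted semaphorin gene SEMA3C followed at 69.9 FPKM, 54.6% of the semaphorin level, ahead of the membrane-bound SEMA6B at 23.1 FPKM. EPHA2, a receptor much studied in glioblastoma, stood at 59.2 FPKM and EPHA3, a receptor of mesenchymal-type glioma cells, at 32.3 FPKM, together nearly all of the EphA level. EPHB4, the receptor of ephrin-B2, made up 93.0% of the EphB level at 21.9 FPKM. PLXNB2 was the leading plexin at 39.3 FPKM, followed by PLXNA3 (17.1), PLXND1 (14.5) and PLXNB3 (13.9). Ephrin-A levels were lower and more even, from 6.996 FPKM for EFNA4 to 0.679 FPKM for EFNA2. SLIT2 (5.22 FPKM) and SLIT3 (3.01 FPKM) were the Slits of these cells. ROBO1, a Slit receptor, had 7.12 FPKM, and ROBO3, which in mammals binds NELL2 in place of Slits, had 1.85 FPKM. SLIT1, ROBO2 and ROBO4 had less than 0.1 FPKM.

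**Figure D1:**
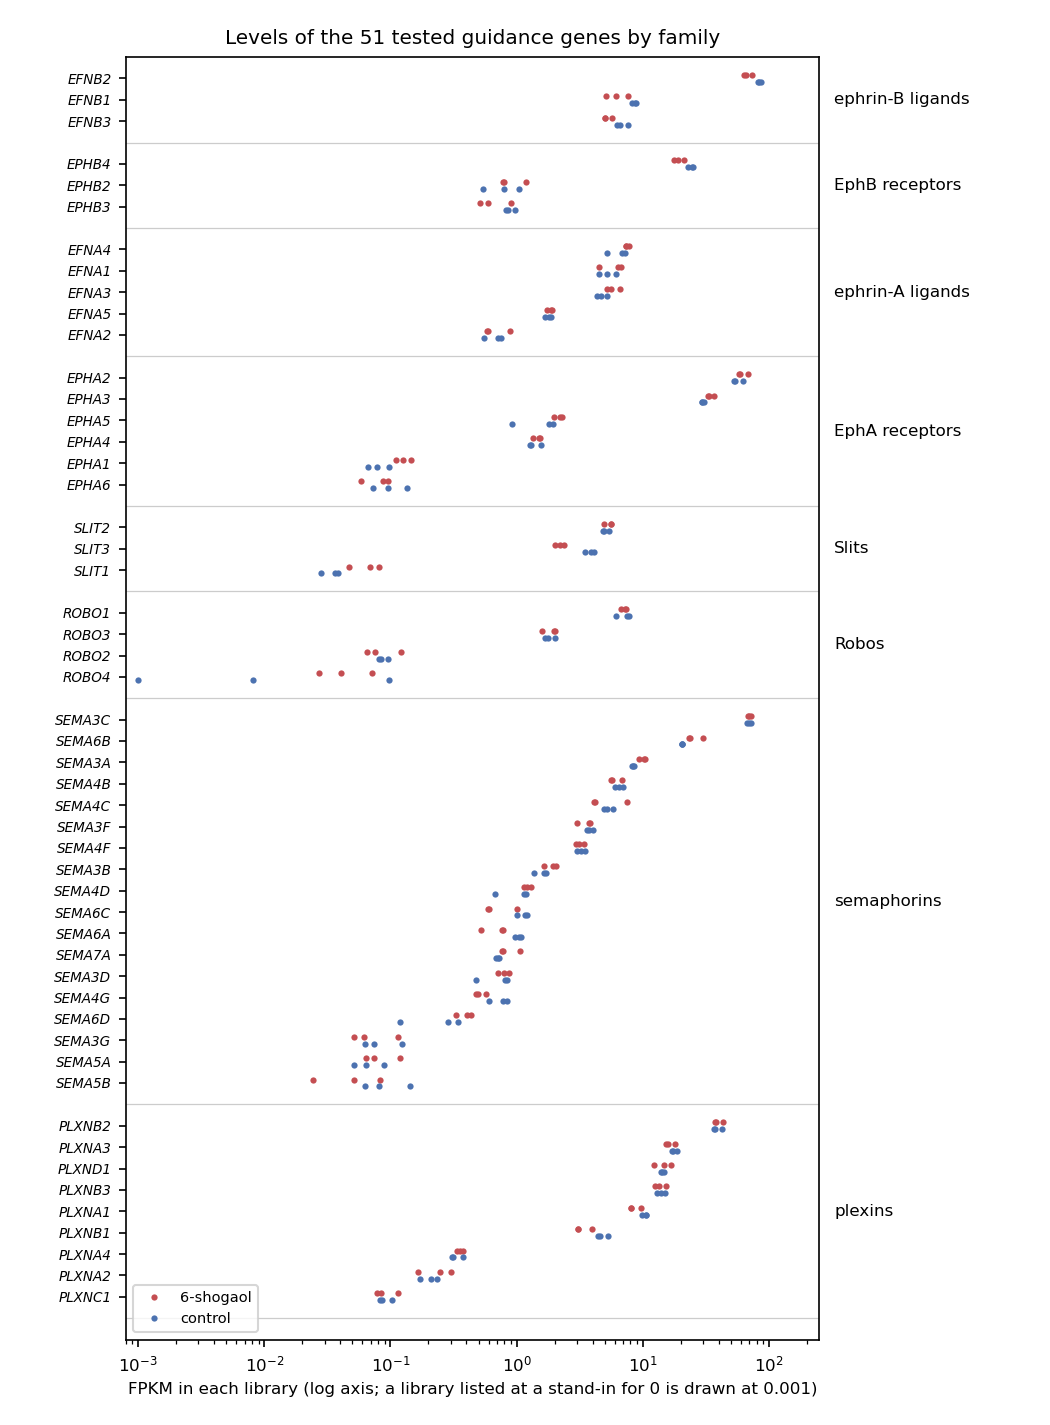
FPKM of the 51 tested guidance genes in each library, on a log axis, grouped by family, with 6-shogaol libraries (red) drawn above control libraries (blue) for each gene. EFNB2, SEMA3C and EPHA2 lie at the top of the range, and 1 or 2 genes carry most of the level of the ephrin-B, EphB, EphA, Slit and Robo families.

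Of the 7 genes below the minimum, EPHA7, EPHA8, EPHA10, EPHB1 and SEMA3E had 0 counts in all 6 libraries, where 3 counts would have been 0.05 to 0.0689 CPM (covering counting error only). EPHB6, a receptor without kinase activity, had 4 counts in control replicate 1 and 0 elsewhere. SEMA4A had 3, 0 and 13 counts with 6-shogaol and 0, 8 and 9 in controls.

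The response of these genes to 6-shogaol was small in size. Among 51 tested genes 0 rose and 2 fell, SLIT3 and EFNB2 (edgeR quasi-likelihood test on 19279 genes, with an adjusted p under 0.05), a share of 3.92% beside 3.38% of all tested genes. Genes that fell made up 1.71% of all tested genes and genes that rose 1.67%. Before adjustment, 13 guidance genes (25.5%) had p under 0.05, 3 of them higher and 10 lower, beside 20.4% of all tested genes (10.4% higher and 9.95% lower). For 17 genes the libraries of the groups did not overlap, 7 with all 6-shogaol libraries above the controls and 10 with all below, which is 33.3% of the tested genes against 27.9% of all genes (14.0% higher and 13.9% lower). The median log2 fold change was 0.01, and -5.32e-05 over all tested genes, and the median absolute value was 0.21, against 0.22. The fitted values ran from -0.86 for SEMA5B to 0.88 for SLIT1, both with mean counts under 50, so that no gene of the set reached a fitted change of 2-fold.

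**Figure D2:**
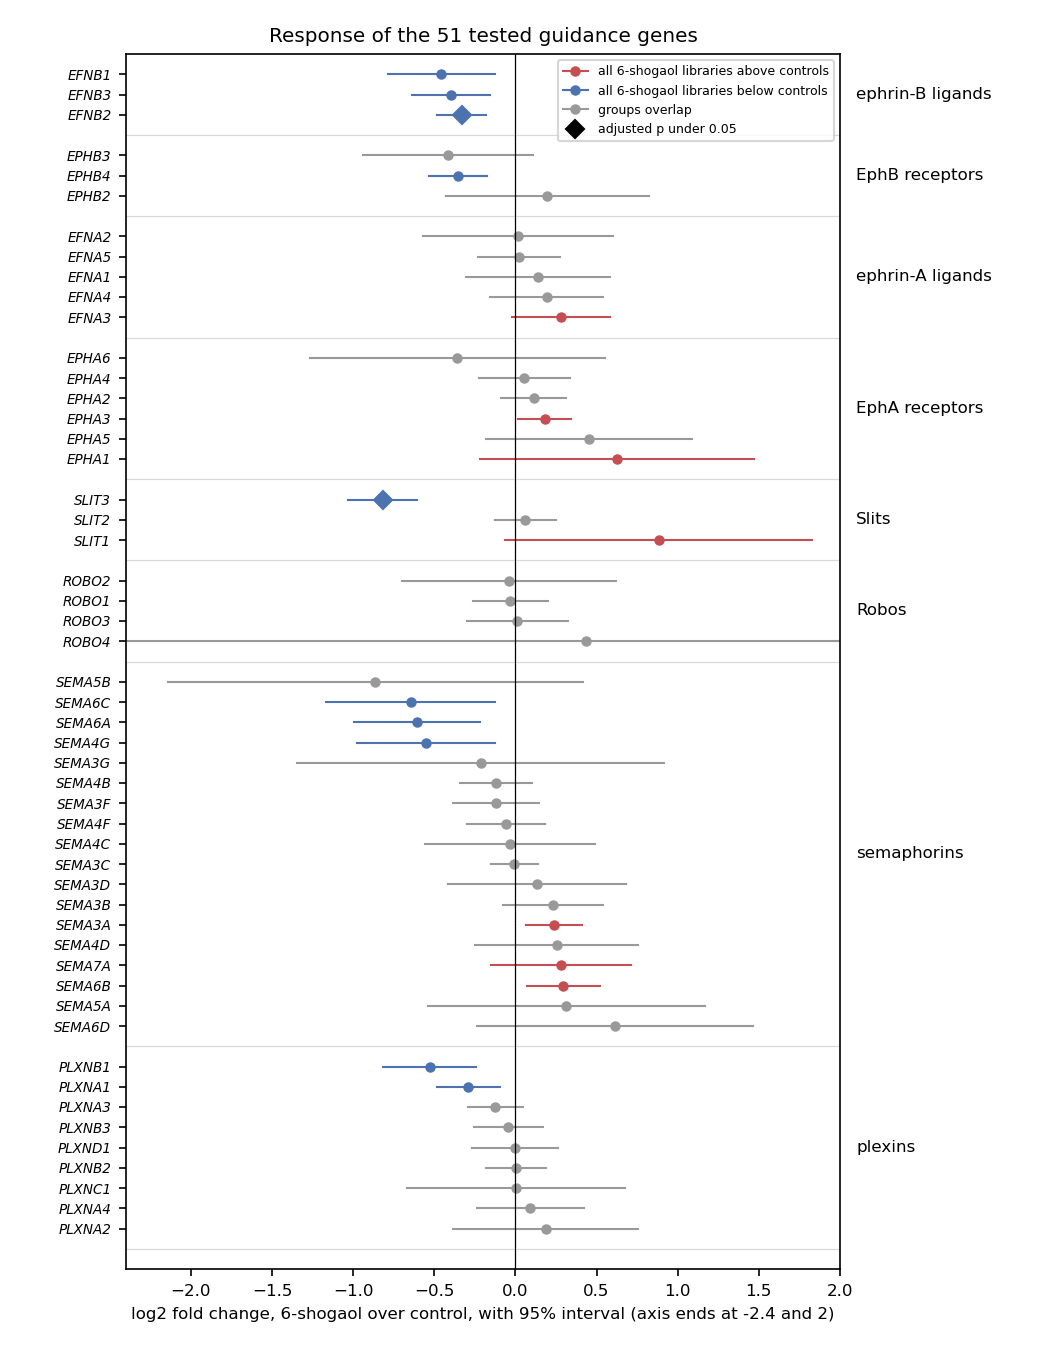
Log2 fold change of 6-shogaol over control for the 51 tested guidance genes by family, with 95% intervals. Diamonds mark SLIT3 and EFNB2, the genes with an adjusted p under 0.05, and blue marks the 10 genes whose 6-shogaol libraries all lay below the controls, among them all 3 ephrin-B ligands.

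The promoter sequences of SLIT3, EFNB2, EPHB4 and EFNB1 are shown, which are 4 of the 10 genes that were lower in every treated library. EFNB3, also chosen from these 10, had no entry in the promoter set used. Each run holds the 250 bases before the start of the gene in RefSeq (GRCh38.p14), 5′ to 3′ on the strand of the gene, with GC boxes (GGGCGG on either strand) in capitals. They cover chr5:169301140-169301389, chr13:106535663-106535912 and chr7:100827524-100827773 on the minus strand and chrX:68828771-68829020 on the plus strand.
SLIT3: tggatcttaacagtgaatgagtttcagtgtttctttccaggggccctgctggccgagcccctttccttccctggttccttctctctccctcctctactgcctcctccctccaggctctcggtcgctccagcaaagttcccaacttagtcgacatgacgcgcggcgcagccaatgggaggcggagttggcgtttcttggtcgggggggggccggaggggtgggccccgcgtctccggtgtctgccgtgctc
EFNB2: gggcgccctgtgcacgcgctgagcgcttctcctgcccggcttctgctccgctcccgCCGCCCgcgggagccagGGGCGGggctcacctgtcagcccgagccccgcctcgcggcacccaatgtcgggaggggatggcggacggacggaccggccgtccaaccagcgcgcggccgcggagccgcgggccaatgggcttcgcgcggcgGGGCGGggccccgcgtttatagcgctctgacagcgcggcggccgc
EPHB4: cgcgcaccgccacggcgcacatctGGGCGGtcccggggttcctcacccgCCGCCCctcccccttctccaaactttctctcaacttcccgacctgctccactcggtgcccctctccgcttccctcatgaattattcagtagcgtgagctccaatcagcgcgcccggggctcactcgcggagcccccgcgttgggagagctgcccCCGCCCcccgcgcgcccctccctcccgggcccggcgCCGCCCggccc
EFNB1: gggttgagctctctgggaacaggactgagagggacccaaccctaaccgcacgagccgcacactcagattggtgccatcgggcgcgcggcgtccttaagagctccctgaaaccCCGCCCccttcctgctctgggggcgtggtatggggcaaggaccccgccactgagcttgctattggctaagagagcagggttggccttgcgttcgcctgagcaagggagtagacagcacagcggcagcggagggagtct

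EPHB4 held 4 GC boxes, EFNB2 3 and EFNB1 1, and these letters are not in the SLIT3 window. Of 35116 RefSeq windows of this length 42.6% held a GC box, and of 84 windows that belong to 53 of the guidance genes 71.4% did. The core of the antioxidant response element (TGACNNNGC) was in 10.9% of all windows and 9.52% of guidance gene windows, among them EFNB2. The letters of a TATA box (TATAAA, on either strand) were in 10.7% of all windows and 3.57% of guidance gene windows, again with EFNB2 among them. In EFNB2 they lie on the strand opposite to the gene and read TTTATA as printed, so they are not a TATA box in its direction. The heat shock element was in 0.441% of all windows and in 0 of the 84, and an E-box (CACGTG) was in 6.34% and 4.76%. The RBPJ site TGGGAA was in 20.8% of all windows, in 14.3% of guidance gene windows and in the SLIT3 and EFNB1 windows shown. All motifs were searched on both strands, matches of different motifs were allowed to overlap, and the median G and C content was 64.8% in guidance gene windows and 58.0% in all.

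The ephrin-B ligands, and EPHB4, the receptor of ephrin-B2, were lower in every 6-shogaol library, and of these genes only EFNB2 passed the test. Groups lay apart for 3 of 3 ephrin-B ligands (100%) and for 1 of 3 tested EphB receptors (33.3%). Of all tested genes 27.9% had groups apart, 13.9% with 6-shogaol lower. Whether the ephrin-B genes changed as a set was not tested. EFNB2 (ENSG00000125266, chromosome 13, 106489745 to 106535662, minus strand) had 422, 395 and 376 CPM in 6-shogaol replicates 1, 2 and 3, against 489, 499.6 and 512 CPM in control replicates 1, 2 and 3. The groups lay apart by more than the spread within either, and EFNB2 fell (398 ± 23.3 CPM against 500.3 ± 11.5 CPM, SD, n = 3 each, log2 fold change -0.33, SE 0.06, edgeR adjusted p = 0.0439). EFNB2 lost its call without any 1 library other than 6-shogaol replicate 1 (log2 fold change from -0.35 to -0.29, edgeR adjusted p from 0.127 to 0.159), in limma on FPKM (adjusted p = 0.0645 and 0.0815 with pseudocounts of 1 and 0.1) and without a filter on low counts (adjusted p = 0.0767). Its exons share 26.2% of their length with the antisense transcript AL138689.2, which had a mean of 131.8 counts beside 24205 for EFNB2, and the strand setting of the counting is not given in the sources used here.

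EFNB1, whose loss causes craniofrontonasal syndrome in humans, had 29.3, 24.3 and 20.03 CPM with 6-shogaol and 32.3, 34.6 and 34.3 CPM in controls. EFNB3, a ligand of the nervous system midline, had 21.2, 19.4 and 19.0 CPM with 6-shogaol and 25.5, 24.2 and 28.8 CPM in controls. Neither passed the test (log2 fold changes -0.46 and -0.40, SE 0.14 and 0.10, edgeR adjusted p = 0.128 and 0.0858), although the groups did not overlap for either gene. EPHB4 (chromosome 7, 100802565 to 100827523) had 158, 136 and 145 CPM with 6-shogaol, against 178, 194 and 189 CPM in controls. It too lay lower in all treated libraries and missed the threshold (log2 fold change -0.35, SE 0.08, edgeR adjusted p = 0.0577).

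The ratio of EFNB2 to EPHB4 was 3.45, 3.75 and 3.34 by FPKM with 6-shogaol and 3.54, 3.31 and 3.49 in controls, so the ligand and its receptor kept overlapping ratios (two-sided exact permutation test, p = 0.8). The ratio of EPHB4 to EPHA2 was 0.311, 0.304 and 0.323 with 6-shogaol and 0.434, 0.469 and 0.399 in controls, with no overlap (two-sided exact permutation test, p = 0.1, the smallest that 3 libraries against 3 allow, 0.2 adjusted over the 4 ratios computed). As EPHB4 itself was lower in every treated library, this ratio adds no separate evidence on it. The remaining EphB receptors were low. EPHB3 had 4.71, 3.23 and 2.80 CPM with 6-shogaol and 4.64, 4.499 and 5.20 CPM in controls, and EPHB2 had 11.5, 11.7 and 17.5 CPM with 6-shogaol and 15.6, 8.19 and 11.7 CPM in controls. Their groups overlapped and neither passed the test (edgeR adjusted p = 0.356 and 0.743).

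Ephrin-B2 and EphB4 are also markers of arterial and venous endothelium. The 4 endothelial markers examined summed to 0.538 to 1.08 CPM with 6-shogaol and 2.998 to 3.199 CPM in controls, most of it from CDH5 (VE-cadherin, 0.691 ± 0.145 CPM against 2.35 ± 0.14 CPM), which fell (edgeR adjusted p = 0.0192). PECAM1 had 0 counts in 5 of 6 libraries. The part of this in the ephrin-B2 and EphB4 values was not tested.

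**Figure D3:**
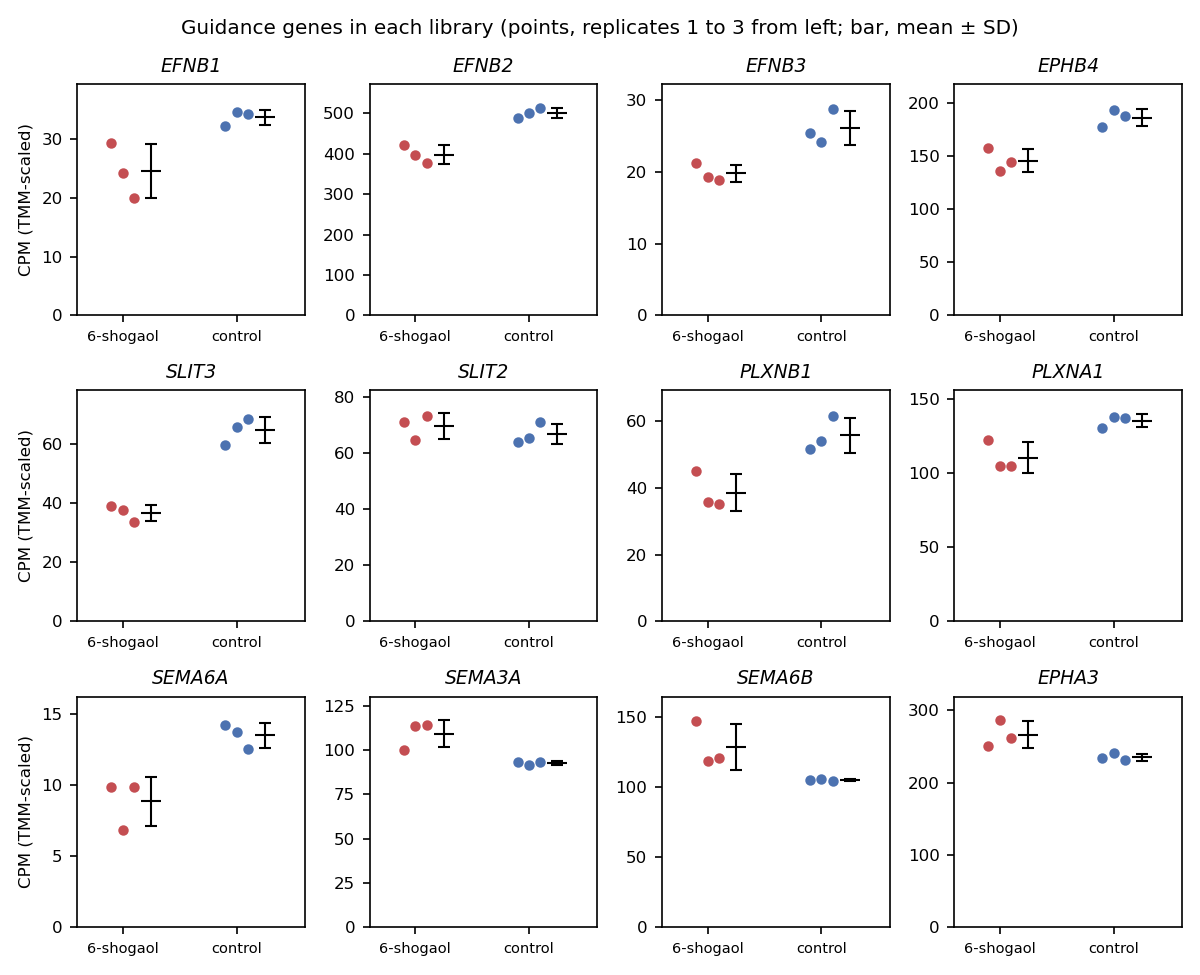
TMM-scaled CPM of 12 guidance genes in the 3 6-shogaol libraries (left, red) and the 3 control libraries (right, blue), with the mean and SD beside them and axes starting at 0. The ephrin-B genes, EPHB4, SLIT3, PLXNB1, PLXNA1 and SEMA6A lie lower in all 6-shogaol libraries, SEMA3A, SEMA6B and EPHA3 higher, and SLIT2 overlaps.

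No ephrin-A ligand or EphA receptor passed the test. The log2 fold changes of the 5 ephrin-A ligands ran from 0.02 to 0.28. Before adjustment 0 of them had p under 0.05 in edgeR, beside 20.4% of all tested genes. EFNA3 was the one ligand of these whose groups did not overlap (20%, beside 27.9% of all tested genes). It had 14.9, 12.1 and 12.8 CPM with 6-shogaol and 12.1, 10.1 and 10.7 CPM in controls. There 6-shogaol replicate 2 (12.102) and control replicate 1 (12.090) almost met (edgeR adjusted p = 0.28). EFNA4, the ephrin-A gene with the highest level per length, had 10.7, 11.7 and 10.9 CPM with 6-shogaol and 10.9, 7.90 and 10.3 CPM in controls (log2 fold change 0.19, edgeR adjusted p = 0.527). EFNA3 and EFNA4 share 44.7% and 15.0% of their exon length with AL691442.1, a transcript on the same strand with a mean of 18.7 counts.

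Among 6 tested EphA receptors, 1, EPHA3, had p under 0.05 before adjustment (16.7%, beside 20.4% of all tested genes). Groups lay apart for 2 of them (33.3%, beside 27.9%). EPHA3 (chromosome 3, 89107621 to 89482134) had 250.01, 287 and 261 CPM with 6-shogaol, against 234, 240.3 and 231 CPM in controls. These groups did not overlap, but the gene did not pass (log2 fold change 0.18, SE 0.07, edgeR adjusted p = 0.209). EPHA2 had 326, 288 and 288 CPM with 6-shogaol and 263, 266 and 304 CPM in controls, with overlapping groups and a 95% interval of the log2 fold change from -0.09 to 0.31. EPHA5 had 22.3, 26.9 and 25.8 CPM with 6-shogaol and 21.3, 22.9 and 10.6 CPM in controls, where control replicate 3 alone was low (edgeR adjusted p = 0.41). EPHA1, at less than 1 CPM, was higher in all 6-shogaol libraries (log2 fold change 0.63, edgeR adjusted p = 0.39), while EPHA4 and EPHA6 overlapped.

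SLIT3 had the clearest change of the set. Slits are large secreted repellents, and SLIT3 (ENSG00000184347, chromosome 5, 168661733 to 169301139, minus strand) had 39.1, 37.6 and 33.6 CPM in 6-shogaol replicates 1, 2 and 3, against 59.9, 65.9 and 68.8 CPM in control replicates 1, 2 and 3. Every treated library lay well below every control, and SLIT3 fell (36.8 ± 2.83 CPM against 64.9 ± 4.5 CPM, SD, n = 3 each, log2 fold change -0.82, SE 0.09, edgeR adjusted p = 0.00862). The call was kept in 5 of the 6 fits without 1 library and lost without control replicate 2 (log2 fold change -0.81, edgeR adjusted p = 0.055). SLIT2, which like SLIT3 binds Robo receptors, had 71.2, 64.6 and 73.3 CPM with 6-shogaol and 64.0, 65.4 and 71.0 CPM in controls. Its groups overlapped, with a 95% interval of the log2 fold change from -0.13 to 0.25. The ratio of SLIT3 to SLIT2 by FPKM was 0.425, 0.452 and 0.356 with 6-shogaol and 0.727, 0.782 and 0.751 in controls, with no overlap (two-sided exact permutation test, p = 0.1, the smallest possible, 0.2 adjusted over the 4 ratios). This ratio is built from the levels of the same genes in the same libraries, so it adds no separate evidence on SLIT3. SLIT1 had 28, 45 and 32 counts with 6-shogaol and 21, 25 and 19 in controls and did not pass (edgeR adjusted p = 0.276).

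The 4 tested Robo receptors gave 0 calls and 0 genes with groups apart, beside 3.38% called and 27.9% apart of all tested genes. ROBO1, the main Robo here, had 94.2, 88.3 and 93.7 CPM with 6-shogaol and 81.2, 100.2 and 101 CPM in controls (log2 fold change -0.03, 95% interval -0.26 to 0.20). ROBO3 (95% interval -0.30 to 0.32) and ROBO2 (-0.70 to 0.62) also overlapped. ROBO4, a receptor of endothelium, had 18, 12 and 26 counts with 6-shogaol and 41, 4 and 0 in controls, too uneven among the controls for a direction (95% interval -2.61 to 3.48).

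Of 18 tested semaphorins 0 passed over all genes, 2 higher and 3 lower genes had p under 0.05 before adjustment (27.8%, beside 20.4% of all tested genes), and 6 had groups apart, 3 in each direction (33.3%, beside 27.9%). Among the secreted class 3 genes, SEMA3A, a collapsing factor for axons that acts through neuropilin 1 and A-type plexins, had 100.3, 114 and 114 CPM with 6-shogaol, against 93.3, 91.7 and 93.1 CPM in controls. All treated libraries were higher, yet it did not pass (log2 fold change 0.24, SE 0.07, edgeR adjusted p = 0.13). SEMA3C, the most abundant semaphorin and a factor of glioma stem cells, had 480.0, 528 and 501 CPM with 6-shogaol and 512, 488 and 516 CPM in controls. Its groups overlapped and the 95% interval of its log2 fold change, -0.15 to 0.14, was narrow. SEMA3B, SEMA3D, SEMA3F and SEMA3G also had overlapping groups, with log2 fold changes from -0.21 to 0.23.

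No membrane-bound semaphorin passed the test. SEMA6A, a ligand of PLXNA2 and PLXNA4 in the mouse, had 9.86, 6.86 and 9.88 CPM with 6-shogaol and 14.2, 13.8 and 12.5 CPM in controls (log2 fold change -0.61, SE 0.16, edgeR adjusted p = 0.0995). SEMA6C had 6.75, 4.21 and 4.09 CPM with 6-shogaol and 8.09, 7.10 and 8.37 CPM in controls (log2 fold change -0.64, SE 0.22, edgeR adjusted p = 0.162). SEMA4G had 3.43, 3.03 and 3.10 CPM with 6-shogaol and 4.95, 3.81 and 5.25 CPM in controls (log2 fold change -0.55, SE 0.18, edgeR adjusted p = 0.15). These groups lay apart without passing the test, and SEMA4G is uncertain as a gene of its own, since 22.3% of its exon length is shared with the opposite-strand gene MRPL43, which had a mean of 1864 counts beside 212.5. In the same class as SEMA6A, SEMA6B had 148, 118 and 120.5 CPM with 6-shogaol, against 105, 106 and 104 CPM in controls. Its treated libraries were all higher, 6-shogaol replicate 1 most, and it did not pass (log2 fold change 0.30, SE 0.10, edgeR adjusted p = 0.145, with a log2 fold change of 0.19 and adjusted p = 0.109 without 6-shogaol replicate 1). SEMA7A was higher in all treated libraries at 3.90 ± 0.7 CPM against 3.22 ± 0.0724 CPM (edgeR adjusted p = 0.454).

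Single libraries stood out for some semaphorins. SEMA4C had 54.1 CPM in 6-shogaol replicate 1 and 31.6 and 30.5 CPM in replicates 2 and 3, beside 39.2, 43.4 and 36.5 CPM in controls. SEMA4D was at 11.4 CPM in control replicate 3, against 19.6 to 21.9 CPM in the 6-shogaol libraries and 19.7 to 20.2 CPM in the other controls. SEMA6D was at 1.28 CPM in control replicate 2, against 3.35 to 4.47 CPM with 6-shogaol and 2.90 to 3.54 CPM in the other controls. None of these 3 genes passed (edgeR adjusted p = 0.952, 0.563 and 0.403).

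Plexins gave 0 calls among 9 genes, and 2 lower ones had p under 0.05 before adjustment, a share of 22.2% that is near the 20.4% of all tested genes. PLXNB1, the receptor of SEMA4D, had 45.0, 35.7 and 35.3 CPM with 6-shogaol, against 51.8, 54.0 and 61.5 CPM in controls (log2 fold change -0.53, SE 0.12, edgeR adjusted p = 0.0669). PLXNA1, a partner of neuropilin 1 for class 3 semaphorins, had 122, 104 and 104 CPM with 6-shogaol, against 130.1, 138 and 137 CPM in controls (log2 fold change -0.29, SE 0.08, edgeR adjusted p = 0.111). Both were lower in all treated libraries, 6-shogaol replicate 1 lying nearest to the controls. PLXNB2, the most abundant plexin, had 362, 324 and 328 CPM with 6-shogaol and 321, 324 and 366 CPM in controls, a log2 fold change with a 95% interval from -0.18 to 0.19. PLXND1, the receptor of SEMA3E, overlapped between the groups (95% interval -0.27 to 0.26), as did PLXNA2, PLXNA3, PLXNA4, PLXNB3 and PLXNC1.

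Co-receptors and cytoplasmic partners of the 3 systems were read from 49 further genes, of which 46 were tested, 2 rose and 1 fell (6.52%, beside 3.38% of all genes). Before adjustment 3 were higher and 11 lower at p under 0.05 (30.4%, beside 20.4%), and 18 had groups that did not overlap, 3 higher and 15 lower (39.1%, beside 27.9%). The median log2 fold change of the partners was -0.08. The partner list was chosen with earlier results of these data known, so these shares, and those of its parts below, do not test the partners as a set. NRP2, the neuropilin of SEMA3F and SEMA3C, had 264, 232 and 270.2 CPM with 6-shogaol, against 218, 207 and 218 CPM in controls, higher in all treated libraries without passing (log2 fold change 0.25, edgeR adjusted p = 0.126). NRP1, the neuropilin of SEMA3A, had 107, 175 and 101 CPM with 6-shogaol and 144, 111 and 106 CPM in controls, with 6-shogaol replicate 2 and control replicate 1 above the rest (edgeR adjusted p = 0.878).

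Of 14 tested Eph and ephrin partners 1 rose and 1 fell (14.3%, beside 3.38% of all tested genes). VAV3, a signalling protein that acts below Eph receptors, had 21.1, 20.3 and 20.3 CPM with 6-shogaol, against 38.5, 33.3 and 32.3 CPM in controls, and fell (log2 fold change -0.75, SE 0.09, edgeR adjusted p = 0.0126). RGS3, which in its PDZ form couples ephrin-B to G protein signalling, had 77.3, 72.3 and 70.1 CPM with 6-shogaol, against 51.3, 60.0 and 51.2 CPM in controls, and rose (log2 fold change 0.44, SE 0.09, edgeR adjusted p = 0.0492). RGS3 was called in 2 of the 15 alternatives, DESeq2 and a filter of 1 CPM, and not with RLE or upper-quartile scaling (adjusted p = 0.0501 and 0.0521) or without any 1 library (adjusted p from 0.0745 to 0.162). VAV3 was called in 3 of the 6 fits without 1 library, losing the call without control replicate 2 or 6-shogaol replicate 2 or 3 (adjusted p from 0.0554 to 0.0571).

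Of 13 Slit and Robo partners 1 rose (7.69%, beside 3.38% of all tested genes). GPC1, the glypican that binds Slit proteins, had 259.7, 227 and 229 CPM with 6-shogaol, against 175, 175 and 179 CPM in controls (log2 fold change 0.44, SE 0.07, edgeR adjusted p = 0.0283), and its call was kept in 1 of the 6 fits without 1 library. SRGAP3, a GTPase-activating protein that binds Robo, and FLRT3, a Robo1-binding membrane protein, were lower in all treated libraries and did not pass (log2 fold changes -0.60 and -0.67, edgeR adjusted p = 0.0698 and 0.071). DAG1, the Slit-binding dystroglycan, had 58.8 CPM in control replicate 1, against 183 to 295 CPM with 6-shogaol and 313 to 321 CPM in the other controls.

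Of 19 tested semaphorin and plexin partners edgeR called 0 over all genes, while 7 had p under 0.05 before adjustment, 1 higher and 6 lower (36.8%, beside 20.4% of all tested genes). The lower ones included ARHGEF11, a binding partner of B-type plexins (log2 fold change -0.33, edgeR adjusted p = 0.0516), MICAL1, an actin-oxidizing enzyme below A-type plexins (-0.31, 0.055), and FARP2, an exchange factor bound by A-type plexins (-0.30, 0.0671). DESeq2 called these 3 lower, and also CDK5 and CRMP1 (DESeq2 adjusted p = 0.0351 and 0.0483). With a filter of 1 CPM edgeR called ARHGEF11, MICAL1 and FARP2 lower as well.

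No 2 of the 17 genes whose groups lay apart were close neighbours on a chromosome. Gaps of at most 500000 bases were found between 6 pairs of the 58 genes. EFNA4, EFNA3 and EFNA1 lie in a row on chromosome 1, with gaps of 9.3 and 40.3 kb, and had log2 fold changes of 0.19, 0.28 and 0.14. ROBO3 and ROBO4 lie 2.2 kb apart on chromosome 11 (0.01 and 0.43), and SEMA3F and SEMA3B 78.5 kb apart on chromosome 3 (-0.12 and 0.23). In the pairs EPHA8 with EPHB2 and SEMA3E with SEMA3A the first gene had 0 counts.

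Leaving out 6-shogaol replicate 1 raised the number of called guidance genes to 8 of 51 tested, beside 1012 of 19953 over all genes. SEMA3A was higher and SLIT3, EFNB1, EFNB2, EPHB4, PLXNA1, PLXNB1 and SEMA6C were lower. Leaving out any 1 of the other libraries left 0 or 1 of 51, SLIT3 being the 1, and from 98 of 20011 to 174 of 20219 over all genes. DESeq2 called 7 of 45 guidance genes, all lower, namely SLIT3, PLXNB1, EFNB2, EPHB4, SEMA6A, EFNB3 and EFNB1. Over all genes it called 1573 of 14605.

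**Figure D4:**
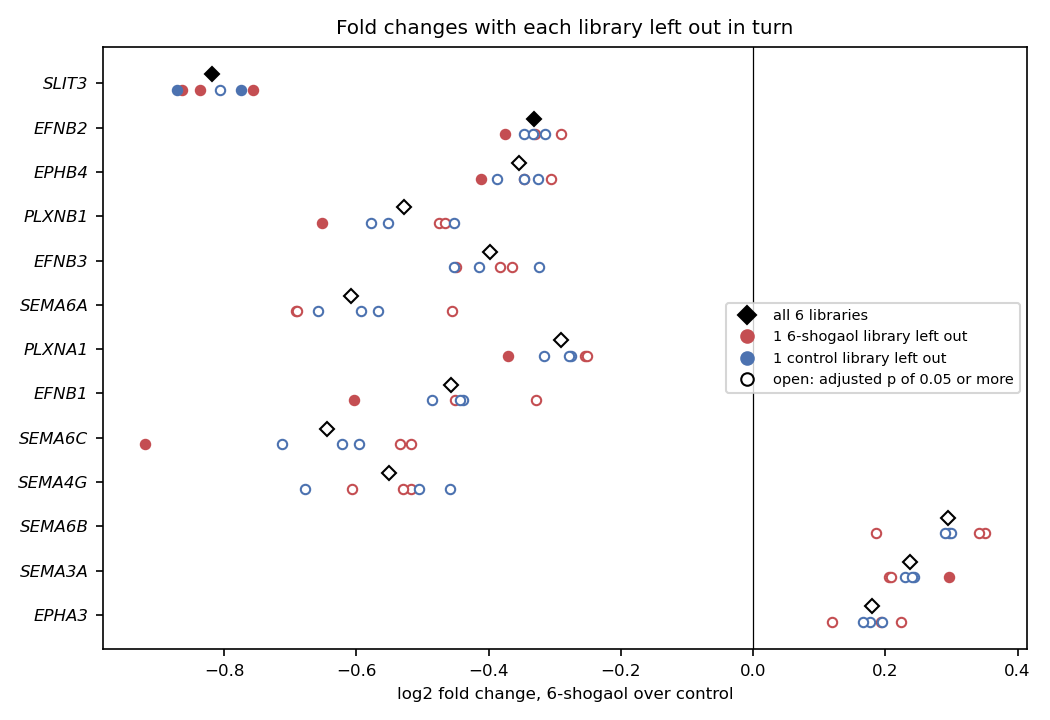
Log2 fold changes of 13 guidance genes with all 6 libraries (diamonds) and with each 6-shogaol library (red) or control library (blue) left out, filled where the adjusted p is under 0.05. Signs do not change for any of the 13 genes, SLIT3 stays between -0.87 and -0.76, and most other filled points belong to the fit without 6-shogaol replicate 1.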

How the data were processed

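The deposited tables hold unscaled gene-level counts and FPKM values of each library, per the file headers. A repeat of the counts differed in 0 values. The sources used here do not name an aligner, counter or strand setting. The submitters' processing notes list GRCm38 and mm10, which are mouse builds, but all 60612 identifiers are human Ensembl ones, and all 58 guidance genes overlap the same gene in GENCODE 29 (GRCh38), 15 with equal start and end. Coordinates are as deposited. The FPKM value 0.0001 stands in for a count of 0.

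Groups and replicate numbers came from the sample titles. Counts were tested over all genes in R 4.3.3 with edgeR 4.0.16 (filterByExpr, TMM, glmQLFit, glmQLFTest, Benjamini-Hochberg, threshold 0.05). The filter left 19279 genes. Standard errors are the log2 fold change over the root of F, and 95% intervals use the total degrees of freedom of that test. Other settings tried were DESeq2 1.42.0, scaling by RLE or upper quartile, thinned counts, different filters, leaving libraries out in turn, a replicate block, and limma 3.58.1 on log2 FPKM with a pseudocount of 1 or 0.1, where at least 3 libraries reached 1 FPKM. The scripts were tested on simulated counts. No library was a copy of another, since chi-square per degree of freedom between replicates was at least 32.8. Exon overlaps were read against GENCODE neighbours averaging 10 counts or more.

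The genes, the partner list and the markers were chosen with earlier results of these data known. Values in each library were given, by rule, for called genes, for the gene with the highest FPKM and the smallest p in each family, and for genes of at least 1 CPM with groups apart and an absolute log2 fold change of at least 0.5. Of the partners the rule took called genes, NRP1 and NRP2. Other values given were chosen after they were seen.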

Additional observations from a re-analysis of the deposited data

How the results depend on the processing

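The number of called guidance genes was 2 with all 6 libraries (of 651 over all genes). It was the same with RLE or upper-quartile scaling (of 658 and 660). It was 7 in DESeq2 (of 1573 over all genes), 4 in thinned counts (of 648) and 3 with a filter of 1 CPM (of 856). It was 1 with no filter (of 378) and 1 in limma on FPKM with either pseudocount (of 691 with 1 and 583 with 0.1). DESeq2 gave an adjusted p to 45 guidance genes among 14605 genes, and the filter of 1 CPM left 45 among 14811. In limma 32 were tested among 12591, against 51 among 19279 in the edgeR test. No filter left 53 among 32031 and thinned counts 51 among 18681. Fits without 1 library gave 0 to 8 called among 51 guidance genes, and 98 to 1012 among 19953 to 20360 genes. They gave 0 to 6 called partners, against 3 with all libraries, 10 in DESeq2 and 6 with the filter of 1 CPM. With the replicate block edgeR called 0 guidance genes, 0 partners and 3 of all genes. The deviations of same-numbered libraries correlated at -0.03, 0.06 and -0.04 across genes, so the numbers are not shown to pair samples. SLIT3 was called in 13 of 15 alternatives (log2 fold change -0.87 to -0.59), EFNB2 in 6 of 15 (-0.38 to -0.29), EPHB4 in 4 and PLXNB1 in 3, each negative throughout, and the cause of the lost calls was not tested. With the block 2 guidance genes were higher and 10 lower before adjustment, against 3 and 10 without it.

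Signs turned only for named genes near 0 or with uneven counts. PLXNB2 was at -0.0069 with upper-quartile scaling, -0.0016 in DESeq2, -0.00093 with the filter of 1 CPM, and SEMA3C at 0.0148 and 0.0150 in limma with pseudocounts of 1 and 0.1. Over the fits without 1 library PLXNB2 ran from -0.0467 to 0.0681, SEMA3C from -0.0450 to 0.0273, ROBO1 from -0.126 to 0.0217, ROBO4 from -0.16 to 3.41 and NRP1 from -0.21 to 0.237, all on the log2 scale and none called. With 3 libraries a group, changes of the size seen for most guidance genes could be missed.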
